A study of Mus musculus with 6 samples.

Results

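Genes of cholesterol synthesis, intracellular transport and efflux were followed in kidney endothelial cells of mice with and without alleles for an endothelial DNA-cutting enzyme. The set was a list of 27 gene symbols, all 27 of which had 1 row each among the 55487 genes of the deposited matrix, and 25 passed a filter of a mean of at least 1 FPKM (fragments scaled by exon length and library size). The 2 below it were Fdps and Lss. The 3 mice of the I-PpoI group had a Cre recombinase driven by the VE-cadherin promoter, which is active in endothelium, and a ROSA-STOP-I-PpoI allele, which makes the endonuclease I-PpoI once Cre has removed the stop. The genotype labels number the ROSA locus 26, 27 and 28 in I-PpoI mice 1, 2 and 3. The control group was 3 littermates labelled wild-type, so the Cre and the I-PpoI allele differ together between the groups. All 6 mice went from chow to a high-fat diet with 60% of energy from fat at 8 weeks of age and stayed on it for 4 weeks. After collagenase digestion of the kidney, cells were enriched magnetically for the surface protein CD31 (Pecam1), so other kidney cells can remain.

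Cells build cholesterol from acetyl-CoA through mevalonate, the isoprenoid farnesyl diphosphate, squalene and lanosterol. When sterols in the endoplasmic reticulum are low, Scap carries the transcription factor SREBP2 (Srebf2) to the Golgi, where it is cut free to switch on the synthesis enzymes and Insig1; when sterols are high, the Insig proteins hold Scap back. Endothelium lies next to plasma lipoproteins, handles the cholesterol it takes up through lysosomal Npc1 and Npc2, and exports sterol through the transporters Abca1 and Abcg1.

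Promoter sequence was examined because most synthesis genes share SREBP2 as a regulator, which acts with the factors NF-Y and Sp1. RefSeq promoters (GRCm38.p6, from 250 bases before to 50 bases after the start) were found for 21 of the 27 genes. The CCAAT box (CCAAT), which NF-Y binds, was found on either strand in 18 of 21, against 41.1% of the 27025 genes with a promoter and 41.6% of the 9964 that also passed the expression filter. The GC box (GGGCGG), which Sp1 binds, was found in 20 of 21, against 38.2% and 67.3%. A core of the sterol regulatory element (TCACNCCAC) was found in 1 of 21, Hmgcs1, against 1.44% of all genes; an E-box (CANNTG), which SREBP2 can also bind, was found in 17 of 21, against 75.0% and 67.9%. A match is a description of letters and not a bound site. The 250 bases before the start are shown for an early enzyme (Hmgcs1), for the feedback gene (Insig1) and for the enzyme of smallest p (Mvd), 5′ to 3′, with the first 3 motifs, on either strand, in capitals. No 2 of these matches overlap.
Hmgcs1, chr13:119690101-119690350, plus strand: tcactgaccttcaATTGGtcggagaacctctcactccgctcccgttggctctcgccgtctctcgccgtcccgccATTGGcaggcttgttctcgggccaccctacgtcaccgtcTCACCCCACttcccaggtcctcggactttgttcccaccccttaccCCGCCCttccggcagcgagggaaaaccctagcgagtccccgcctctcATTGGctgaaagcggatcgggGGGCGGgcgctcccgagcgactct
Insig1, chr5:28071162-28071411, plus strand: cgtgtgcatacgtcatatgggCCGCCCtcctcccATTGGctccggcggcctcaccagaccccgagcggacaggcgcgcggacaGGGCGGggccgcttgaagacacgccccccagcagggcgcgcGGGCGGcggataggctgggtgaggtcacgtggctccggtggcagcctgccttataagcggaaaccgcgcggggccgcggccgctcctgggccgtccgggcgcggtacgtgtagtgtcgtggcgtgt
Mvd, chr8:122443423-122443672, minus strand: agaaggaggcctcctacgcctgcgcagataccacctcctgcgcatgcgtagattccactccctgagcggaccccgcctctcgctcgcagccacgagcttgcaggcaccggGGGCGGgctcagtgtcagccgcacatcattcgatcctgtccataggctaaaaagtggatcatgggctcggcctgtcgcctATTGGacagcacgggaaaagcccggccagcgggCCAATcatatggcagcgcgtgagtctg
The Hmgcs1 stretch held the sterol regulatory element core, 3 CCAAT boxes and 2 GC boxes. The Insig1 stretch held 1 CCAAT box and 3 GC boxes, and the Mvd stretch 2 CCAAT boxes and 1 GC box.

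The libraries were unlike in depth, though the main limma fit gave each the same weight. Whole fragments recovered from FPKM and exon length came to 1590957 and 834149 for I-PpoI mice 1 and 2 and 13324303 for I-PpoI mouse 3, beside 14081222 to 16954480 for the control libraries. The minus strand held 68.2% and 70.6% of the mitochondrial fragments of I-PpoI mice 1 and 2, a share that was 0.0821% for I-PpoI mouse 3 and at most 0.0664% for any control. Over the 14962 genes tested, the rank correlation (Spearman) of a library with the mean of the controls, itself left out, was 0.28, 0.25 and 0.95 in I-PpoI mice 1, 2 and 3 and 0.95 to 0.97 in the controls. The mitochondrial share of fragments was 6.42%, 38.2% and 48.2% for the I-PpoI libraries in mouse order, beside 8.83 to 18.3% for the control libraries. Fragments of Ddx3y, on the Y chromosome, numbered 20, 0 and 0 for the I-PpoI libraries and 959 to 1672 for the control libraries; those of Xist numbered 0, 70 and 4739 for the I-PpoI libraries and 0 to 4 for the control libraries. Both transcripts differ between the sexes, and by them sex was not balanced between the groups. How far these differences enter the results was not tested. FPKM was therefore divided by median-of-ratios factors of 0.636, 0.435 and 0.614 in I-PpoI mice 1, 2 and 3 and 0.949 to 1.07 in the controls, set so that the controls average 1; values below are scaled FPKM, and multiplying by the factor returns the deposited value. As deposited, the median log2 difference over all genes was -0.65, and scaled it was 0.01.

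Endothelial identity was checked with 12 markers, all of which were above 0 in every library. Their summed scaled FPKM was 3137, 1533.5 and 2087 in I-PpoI mice 1, 2 and 3, against 2661 to 3051 in the controls. Eng alone gave 1200.5, 579 and 565 of these sums in the I-PpoI mice and 580 to 700 in the controls. Pecam1 was at 178, 95.6 and 170 in the I-PpoI mice, against 200 to 250 in the controls. Tek and Esam were likewise below every control in I-PpoI mice 1, 2 and 3, and the other endothelial markers overlapped between groups. Markers of the proximal tubule, a cell type that is itself rich in lipid metabolism, summed to 237, 1499 and 2514 over 12 genes in I-PpoI mice 1, 2 and 3, against 341 to 1095 in the controls, with only Slc22a8 at 0, in I-PpoI mouse 1. Macrophage markers, whose cells express Abca1, Abcg1 and Npc2, summed to 147, 591 and 382 over 10 genes in the I-PpoI mice, against 34.3 to 237 in the controls, with only Fcgr1 at 0, in I-PpoI mouse 1. Their part in the results below was not tested. In bulk RNA, fewer cells of a type and less RNA per cell cannot be told apart.

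In control endothelium the lysosomal protein Npc2, the regulators Srebf2 and Insig1 and the enzyme Hmgcs1 stood highest, and Fdps, Lss and Tm7sf2 lowest, on the per-length scale of scaled FPKM. Npc2 was at 26.3 ± 6.92, Srebf2 at 22.2 ± 2.52, Insig1 at 20.002 ± 2.33, Hmgcs1 at 17.7 ± 1.19, Ebp at 12.9 ± 2.29, Scap at 12.2 ± 0.693 and Stard4 at 11.6 ± 0.898 (SD, n = 3). Neighbours among the first 4 of these lay within their SDs of each other, as did the last 3, while Hmgcs1 and Ebp were further apart. Among all genes tested, the control level of Npc2 lay at percentile 88.2, that of Srebf2 at 85.5 and that of Tm7sf2, the lowest tested, at 23.2. In all, 15 of the 25 tested genes lay above the middle of the genes tested. The control CV had a median of 16.1% over the 25 genes and 21.9% over all genes tested; the least even of the 25 were Mvd at 46.1% and Abca1 at 37.7%, and the most even Scap at 5.69% and Nsdhl at 5.998%.

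**Figure D1:**
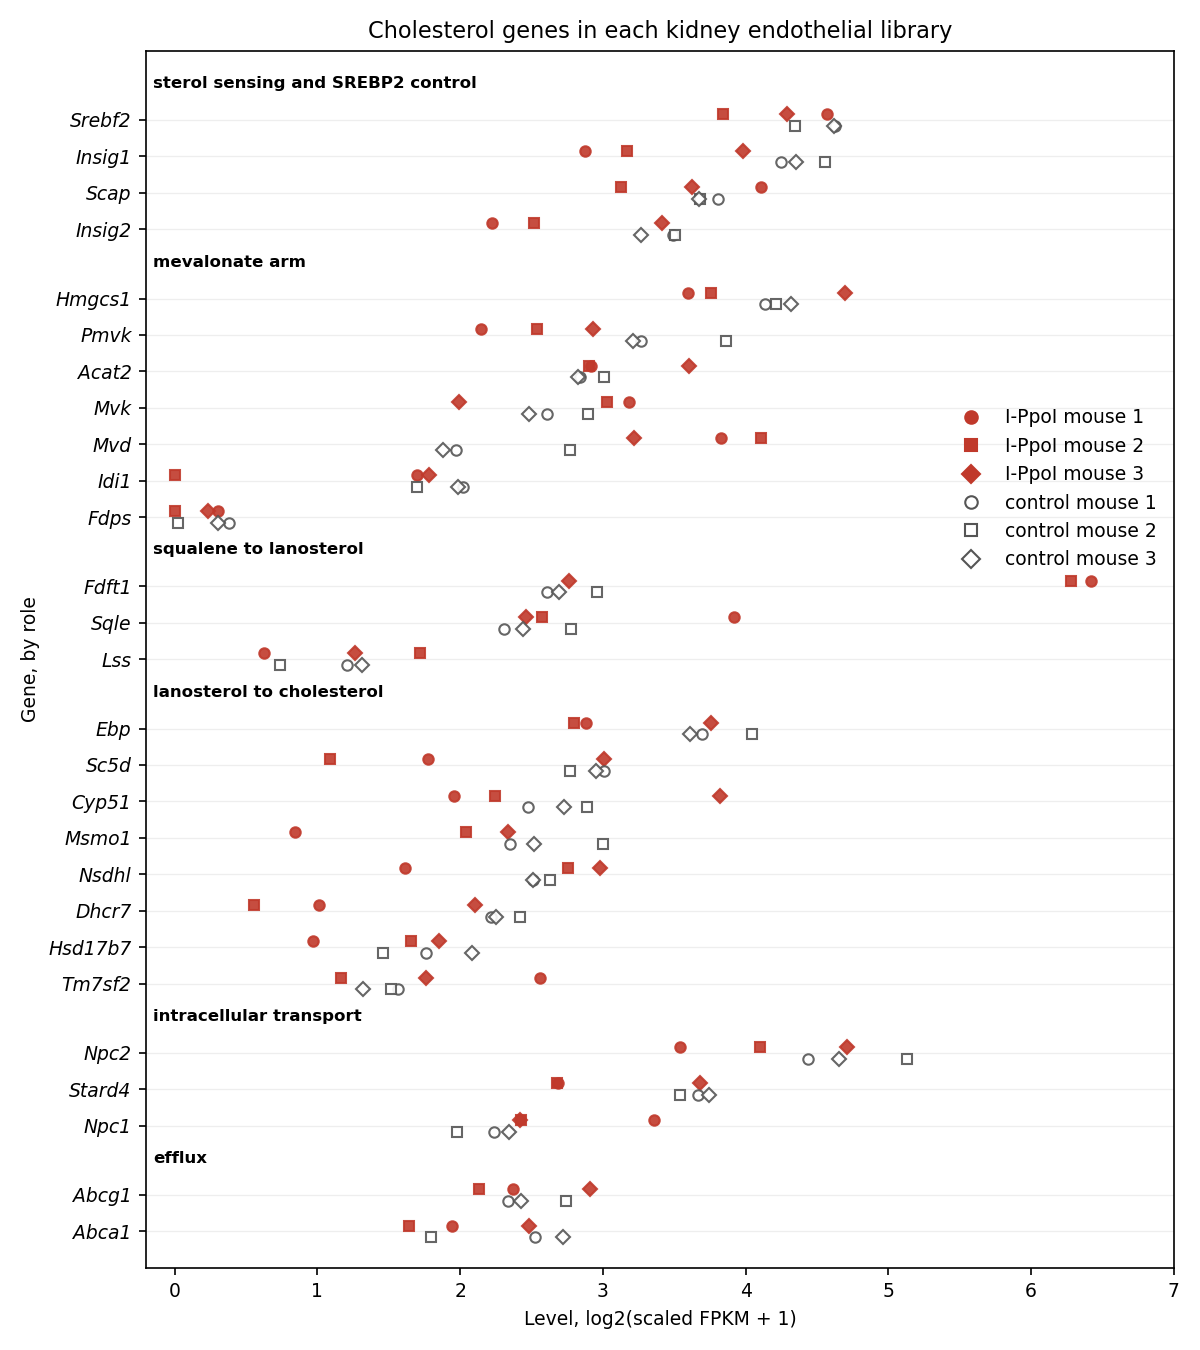
Level of each of the 27 genes, as log2(scaled FPKM + 1), by role; filled red symbols are the 3 I-PpoI mice and open grey symbols the 3 controls, 1 symbol per mouse. I-PpoI mice 1 and 2 stand far to the right of the rest at Fdft1 and to the left at Insig1, Sc5d and Dhcr7, while I-PpoI mouse 3 lies close to the controls for most genes and to their right at Cyp51, Hmgcs1 and Acat2.

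The comparison of I-PpoI with control mice asked whether cholesterol genes differ in this endothelium with the Cre and the I-PpoI allele. DNA breaks were not measured in these data. No gene of the set passed. Limma on log2(scaled FPKM + 1) called 0 of 25 at adjusted p under 0.05, as it called 0.0% of the 14962 genes, and limma-voom on the recovered fragments also called 0. At unadjusted p under 0.05, 1 of 25 was higher (background 5.6%) and 2 of 25 were lower (background 2.81%) by limma, and 1 of 25 was past it by limma-voom (background 3.53%). The log2 difference was below 0 for 18 of 25, against 49.4% of all genes, and its median was -0.28, against 0.01 over all genes. With FPKM as deposited it was below 0 for 23 of 25 (background 71.6%), with a median of -0.89 against -0.65 over all genes. The values over all genes were not matched to the control level of the set, where 15 of 25 genes lay above the middle. Without I-PpoI mice 1 and 2 the median of the set was 0.03, so the tilt rests on those libraries. Without I-PpoI mouse 3 instead, 2 of 25 were called higher (background 23.8%) and 7 of 25 lower (background 13.9%), in a fit that leaves only the shallow I-PpoI libraries. All 3 I-PpoI mice lay above all controls for 2 genes (background 7.65%) and below for 4 (background 9.76%).

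The regulators come first. Insig1 (GRCm38 chromosome 5, 28071363 to 28078662), the sterol-sensing anchor that is itself a target of SREBP2, was at 6.34, 7.98 and 14.8 in I-PpoI mice 1, 2 and 3 and at 17.99, 22.6 and 19.5 in control mice 1, 2 and 3. All I-PpoI values were below all controls, and I-PpoI mouse 3 was the nearest to them. Its log2 difference was -1.05 (SE 0.37, limma adjusted p = 0.322). These I-PpoI values rest on 20, 9 and 374 fragments, against 964 to 968 in the controls. Insig2, the second anchor, was at 3.67, 4.74 and 9.64 in the I-PpoI mice and 10.3, 10.3 and 8.63 in the controls, so I-PpoI mouse 3 lay inside the control range. Srebf2 (chromosome 15, 82147181 to 82205379) was at 22.8, 13.4 and 18.5 in the I-PpoI mice and 23.7, 19.3 and 23.6 in the controls. The groups overlapped, and its log2 difference was -0.30 (SE 0.30, limma adjusted p = 0.572). Scap, the escort, averaged 11.8 ± 4.25 in I-PpoI and 12.2 ± 0.693 in control mice (SD, n = 3 each).

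In the mevalonate arm the enzymes did not move as one. Hmgcs1 (chromosome 13, 119690379 to 119708260), which makes HMG-CoA, was at 11.1, 12.5 and 24.9 in I-PpoI mice 1, 2 and 3 and at 16.6, 17.6 and 19.0 in the controls. The I-PpoI mice lay on both sides of the controls, with mice 1 and 2 below and mouse 3 above (log2 difference -0.21, SE 0.37, limma adjusted p = 0.751). Mvd (chromosome 8, 122433601 to 122443422), which makes isopentenyl diphosphate, was at 13.2, 16.2 and 8.29 in the I-PpoI mice and 2.92, 5.83 and 2.68 in the controls. Every I-PpoI value was above every control, and the log2 difference of 1.51 had the smallest p of the set (SE 0.40, limma adjusted p = 0.322). It rests on 25, 11 and 126 fragments in the I-PpoI mice and 80 to 150 in the controls, and the gene has no opposite-strand gene within 5 kb. Pmvk (chromosome 3, 89454541 to 89469013), the kinase before Mvd, was on the other side, at 3.44, 4.80 and 6.64 in the I-PpoI mice and 8.62, 13.5 and 8.28 in the controls. Its groups did not overlap (log2 difference -0.91, SE 0.35, limma adjusted p = 0.322), on 6, 3 and 93 fragments in the I-PpoI mice and 228 to 321 in the controls.

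The other mevalonate genes overlapped between groups. Mvk, the first mevalonate kinase, averaged 6.07 ± 2.72 in I-PpoI and 5.38 ± 0.968 in control mice, and Acat2, the thiolase that joins acetyl-CoA units, 8.06 ± 2.68 in I-PpoI and 6.43 ± 0.532 in control mice (SD, n = 3 each). Acat2 shares 39.1% of its transcript 50-mers with other annotated genes, chiefly Acat3, so its level is uncertain. Idi1, the isomerase, had 8, 0 and 70 fragments in the I-PpoI mice and 109 to 186 in the controls; a count of 0 in the 834149 fragments of I-PpoI mouse 2 allows up to 2.35 scaled FPKM, beside a control mean of 2.76. Fdps, which makes farnesyl diphosphate, had 0 to 6 fragments in the I-PpoI mice and 1 to 22 in the controls. It shares 26.2% of its 50-mers with other genes, chiefly Gm43738, and its low level is uncertain for that reason. The share was 17.7% for Idi1, 9.87% for Tm7sf2 and 9.38% for Fdft1, and at most 2.17% for any other gene of the set.

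Between farnesyl diphosphate and lanosterol, the gap between libraries was widest. Fdft1 (chromosome 14, 63145150 to 63179578), which makes squalene, was at 84.8 and 76.7 in I-PpoI mice 1 and 2 and at 5.79 in I-PpoI mouse 3, against 5.09, 6.78 and 5.47 in the controls. I-PpoI mouse 3 thus lay inside the control range while the other two I-PpoI libraries lay far above it (log2 difference 2.40, SE 1.02, limma adjusted p = 0.322; 0.03 without I-PpoI mice 1 and 2). Fdft1 exons overlap 774 bases of Ctsb, a cathepsin gene on the opposite strand, which stood at 41.8, 57.6 and 114 scaled FPKM for the I-PpoI mice and 64.4 to 85.5 for the controls. The Fdft1 values of I-PpoI mice 1 and 2 are therefore uncertain, in the libraries whose mitochondrial fragments lay mostly on the minus strand. Whether fragments of Ctsb entered them was not tested. Sqle, the squalene epoxidase, was at 14.1, 4.95 and 4.52 in the I-PpoI mice and 3.95, 5.84 and 4.42 in the controls, with only I-PpoI mouse 1 outside the controls. Lss, the lanosterol synthase, was at 0.546, 2.29 and 1.41 in the I-PpoI mice and 1.31, 0.670 and 1.49 in the controls.

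From lanosterol to cholesterol, 8 enzymes were tested and 0 passed. Cyp51 (chromosome 5, 4081145 to 4104746), the lanosterol demethylase, was at 2.89, 3.73 and 13.2 in I-PpoI mice 1, 2 and 3 and at 4.56, 6.42 and 5.62 in the controls. It split the I-PpoI mice as Hmgcs1 did, with mouse 3 above all controls and mice 1 and 2 below them. Dhcr7, the last reductase of the pathway, was at 1.01, 0.472 and 3.30 in the I-PpoI mice and 3.64, 4.36 and 3.75 in the controls (log2 difference -1.07, SE 0.45, limma adjusted p = 0.322). The I-PpoI values were all lower than the controls, but rest on 6, 1 and 157 fragments. Msmo1, the sterol methyl oxidase, was at 0.798, 3.13 and 4.06 in the I-PpoI mice and 4.10, 7.001 and 4.72 in the controls; the groups did not overlap, though I-PpoI mouse 3 lay next to the lowest control.

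Ebp, the sterol isomerase, was at 6.37, 5.94 and 12.5 in the I-PpoI mice and 12.0, 15.5 and 11.2 in the controls. Sc5d, a sterol desaturase, was at 2.42, 1.13 and 7.03 in the I-PpoI mice and 7.03, 5.82 and 6.75 in the controls. For both, I-PpoI mice 1 and 2 were below the controls and I-PpoI mouse 3 was level with them. Nsdhl, a decarboxylating dehydrogenase, averaged 4.91 ± 2.53 in I-PpoI and 4.86 ± 0.291 in control mice, Hsd17b7, a keto-reductase, 1.91 ± 0.851 in I-PpoI and 2.46 ± 0.739 in control mice, and Tm7sf2, a sterol reductase, 2.85 ± 1.87 in I-PpoI and 1.77 ± 0.240 in control mice (SD, n = 3 each).

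Transport and efflux genes overlapped between groups except for Npc1. Npc1, the lysosomal membrane protein that passes cholesterol on, was at 9.27, 4.36 and 4.35 in I-PpoI mice 1, 2 and 3 and 3.72, 2.94 and 4.08 in the controls. All I-PpoI values were above the controls, and mouse 1 stood apart (log2 difference 0.55, SE 0.36, limma adjusted p = 0.411); its exons overlap 511 bases of Rmc1 on the opposite strand. Npc2, the soluble partner that hands sterol to Npc1, was at 10.6, 16.1 and 25.2 in the I-PpoI mice and 20.7, 34.1 and 24.2 in the controls (limma adjusted p = 0.403). Stard4, a cytosolic sterol carrier, was at 5.44, 5.40 and 11.8 in the I-PpoI mice and 11.7, 10.6 and 12.4 in the controls. Both had I-PpoI mice 1 and 2 below the controls and mouse 3 among them.

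Abca1 (chromosome 4, 53030787 to 53159895), which loads cholesterol onto lipid-poor apolipoprotein A-I, was at 2.84, 2.12 and 4.60 in the I-PpoI mice and 4.77, 2.48 and 5.59 in the controls. Abcg1 (chromosome 17, 31057675 to 31117988), which exports sterol to HDL particles, was at 4.17, 3.38 and 6.52 in the I-PpoI mice and 4.05, 5.70 and 4.36 in the controls. The groups overlapped for both transporters, with log2 differences of -0.33 (SE 0.39) and -0.03 (SE 0.32) and limma adjusted p of 0.624 and 0.959. Neither gene has an opposite-strand gene within 5 kb.

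**Figure D2:**
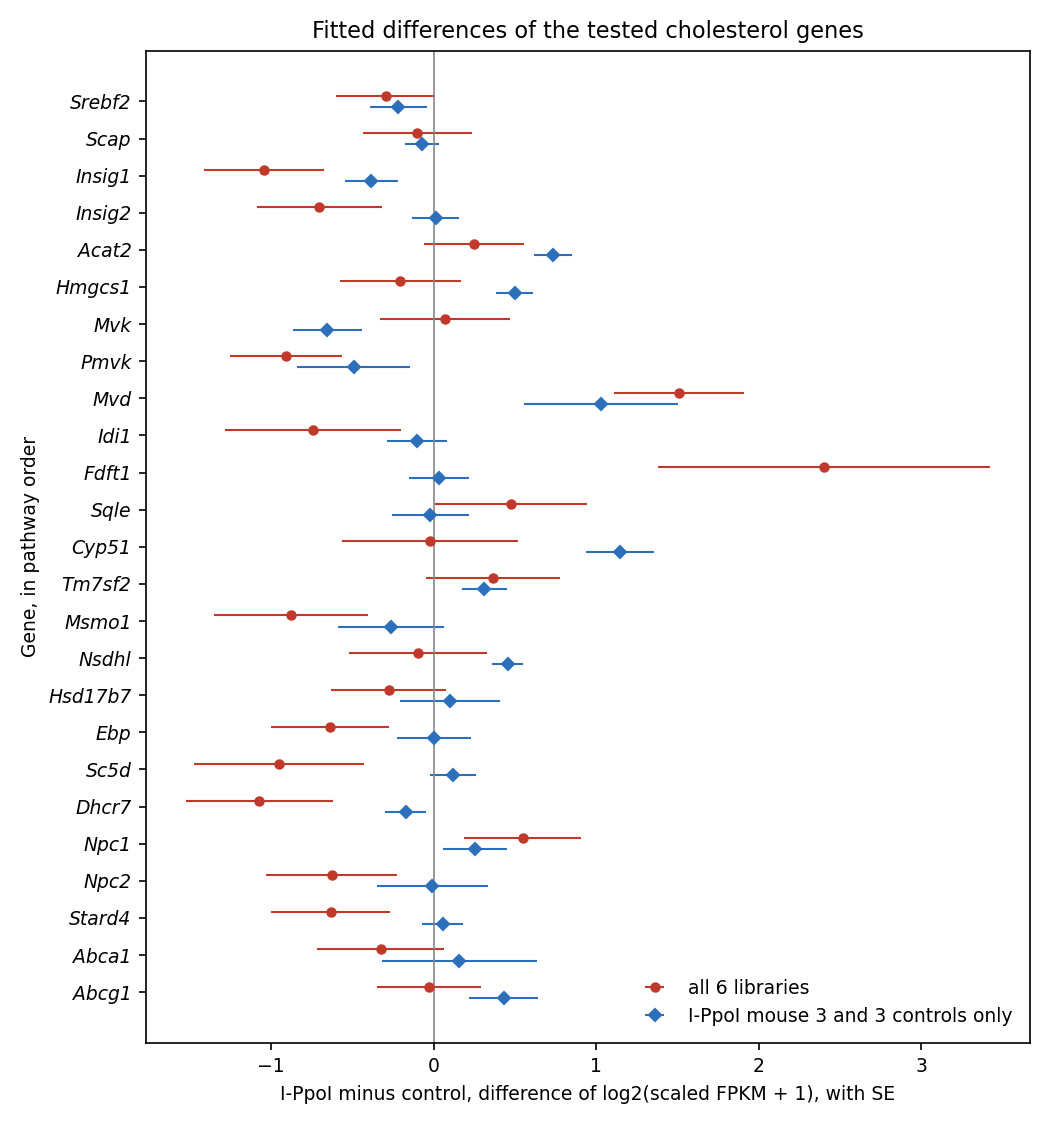
Fitted log2 differences, I-PpoI minus control, with SE, of the 25 tested genes in pathway order; red circles use all 6 libraries and blue diamonds I-PpoI mouse 3 with the 3 controls, a fit that takes the spread of the single I-PpoI library to be that of the controls. Fdft1 stands at 2.40 in red and 0.03 in blue, and Cyp51 at -0.02 in red and 1.15 in blue.

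I-PpoI mouse 3 was also described alone, since its total fragments and gene order were close to the controls. Its nuclear depth was lower, with 48.2% of its fragments mitochondrial. Tested nuclear protein-coding genes with no opposite-strand gene within 5 kb held 2335623 fragments in this library, against 4095365 to 5037270 in the controls. It lay above all controls for 9 of 25 genes (background 22.2%) and below for 7 of 25 (background 26.1%). The 95% counting interval of I-PpoI mouse 3, exact Poisson and covering counting error only, stayed clear of the controls above for 6 genes (background 11.3%) and below for 3 (background 10%). Cyp51 was at 13.2 (12.0 to 14.4), 2.38 times the control mean. Mvd was at 8.29 (6.90 to 9.86), 2.18 times it, and Acat2 at 11.1 (9.76 to 12.7), 1.73 times it. The others above were Nsdhl at 1.42, Hmgcs1 at 1.41 and Abcg1 at 1.39 times the control mean. Those below were Insig1 at 0.739, Pmvk at 0.654 and Mvk at 0.552 times the control mean.

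Fitted with the 3 controls, this library gave unadjusted p under 0.05 for 4 of 25 genes higher (background 5.87%) and 0 of 25 lower (background 2.61%), and 0 at adjusted p under 0.05. They were Acat2 (log2 difference 0.73, SE 0.12, limma adjusted p = 0.380), Cyp51 (1.15, SE 0.21, limma adjusted p = 0.416), Nsdhl (0.455, SE 0.095, limma adjusted p = 0.450) and Hmgcs1 (0.50, SE 0.11, limma adjusted p = 0.471). The sum of proximal tubule markers was also highest in this library, at 2514 against at most 1095 in the controls. Kap alone gave 1157 of the 2514, and 768 of the 1095 in control mouse 2. Some of these markers were higher in I-PpoI mouse 2, such as Pck1, at 574 there and 376 in I-PpoI mouse 3. Lrp2, a tubule receptor, was at 108 in I-PpoI mouse 3 against 2.17 to 3.71 in the controls. The library of I-PpoI mouse 3 also held 4739 fragments of Xist and 0 of Ddx3y, against 0 to 4 and 959 to 1672 in the controls. By these transcripts its sex differed from that of all controls. Nsdhl lies on the X chromosome, as does Ebp, which was within the control range. The part of tubule cells and of sex in these values was not tested.

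**Figure D3:**
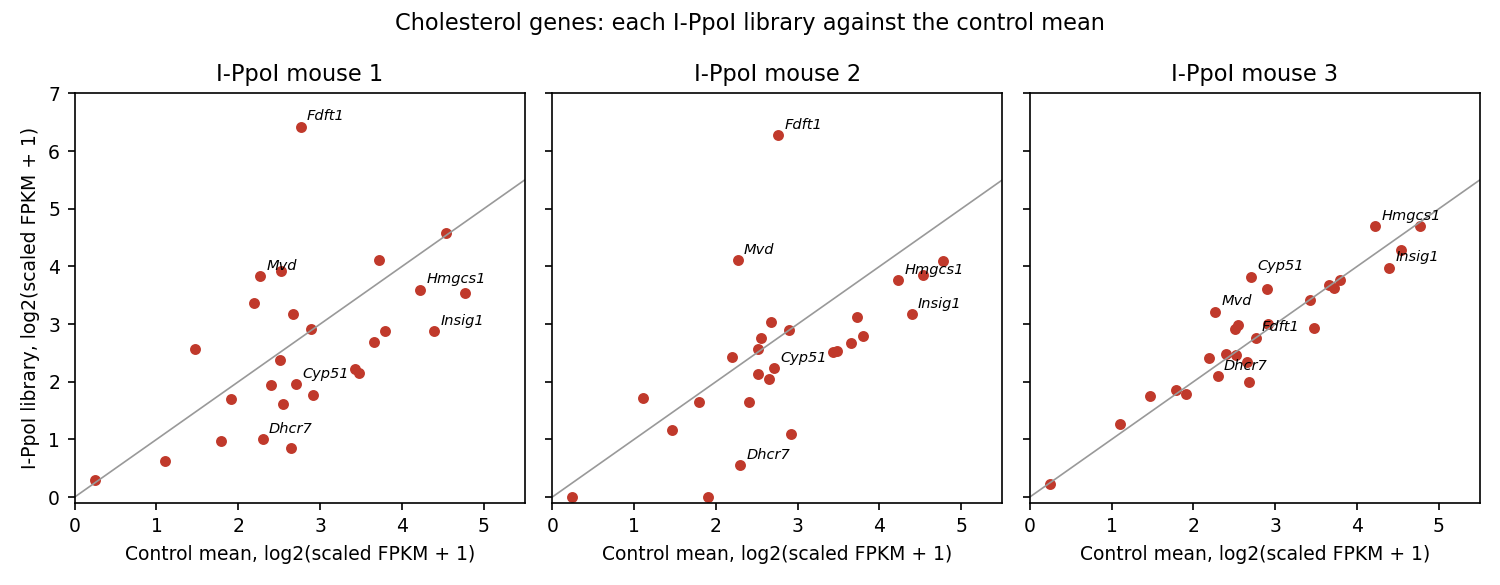
Each I-PpoI library, one panel per mouse, against the control mean over the 27 genes, both as log2(scaled FPKM + 1); the line marks equal levels. The points of I-PpoI mouse 3 follow the line, with Cyp51 and Mvd above it, while those of I-PpoI mice 1 and 2 scatter, with Fdft1 far above.

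The order of the 27 genes by level was compared with that in the controls. Spearman's rho with the control mean was 0.54, 0.68 and 0.89 in I-PpoI mice 1, 2 and 3, against 0.91 to 0.96 for each control with the other two (n = 27 genes, which share their libraries and depth). By role, the median log2 ratio to the control mean in I-PpoI mice 1, 2 and 3 was -0.58, -0.80 and -0.17 for the 4 regulators, -0.10, -0.23 and 0.17 for the 6 tested mevalonate genes, -0.92, -0.54 and 0.08 for the 8 late enzymes and -0.30, -0.57 and 0.24 for the 2 efflux genes. It was -0.97, -0.67 and 0.03 for the 3 transport genes and 2.53, 1.78 and -0.03 for Fdft1 and Sqle. I-PpoI mouse 3 had the highest of the 3 medians in each of these roles except that of Fdft1 and Sqle, where it had the lowest.

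Ratios of 2 genes within a library do not depend on the scaling of that library. The ratio of Hmgcs1 to Insig1, a synthesis enzyme over the feedback gene, was 1.75, 1.57 and 1.69 in I-PpoI mice 1, 2 and 3 and 0.922, 0.779 and 0.974 in the controls. The I-PpoI ratios were all above the control ratios, but those of I-PpoI mice 1 and 2 have wide counting error. Counting error alone gives intervals of 1.03 to 3.10, 0.690 to 3.896 and 1.495 to 1.91 in I-PpoI mice 1, 2 and 3. None of the control intervals goes above 1.06. The interval of I-PpoI mouse 2, on 21 over 9 fragments, covers the control ratios, and that of I-PpoI mouse 1 overlaps the interval of control mouse 3. Only that of I-PpoI mouse 3 lies above all control intervals. The ratio of Cyp51 to Dhcr7 was 2.86, 7.91 and 3.99 in the I-PpoI mice and 1.25, 1.47 and 1.498 in the controls. It rests on 13 over 6 fragments in I-PpoI mouse 1 (interval 1.01 to 9.16) and 6 over 1 in I-PpoI mouse 2 (interval 0.959 to 364). Both intervals cover the control ratios, and only that of I-PpoI mouse 3 (3.32 to 4.805) lies above them. The ratio of Insig1 to Insig2 was 1.73, 1.68 and 1.53 in the I-PpoI mice and 1.75, 2.18 and 2.26 in the controls, where I-PpoI mouse 1 and control mouse 1 differed by less than counting error (intervals 0.818 to 3.78 and 1.58 to 1.94). The ratio of Npc2 to Npc1 was 1.15, 3.70 and 5.78 in the I-PpoI mice and 5.57, 11.6 and 5.94 in the controls, and the groups overlapped. Of the 6 pairs computed, the groups overlapped for this one, for Srebf2 over Scap and for Abca1 over Abcg1. The pairs were chosen after the values were seen, so no test is given. How often other gene pairs separate the groups was not computed. Among single genes tested, the I-PpoI mice lay above all controls in 7.65% and below all controls in 9.76%. Hmgcs1 exons overlap 557 bases of Gm48342 and Cyp51 exons 166 bases of Akap9 on the opposite strand.

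**Figure D4:**
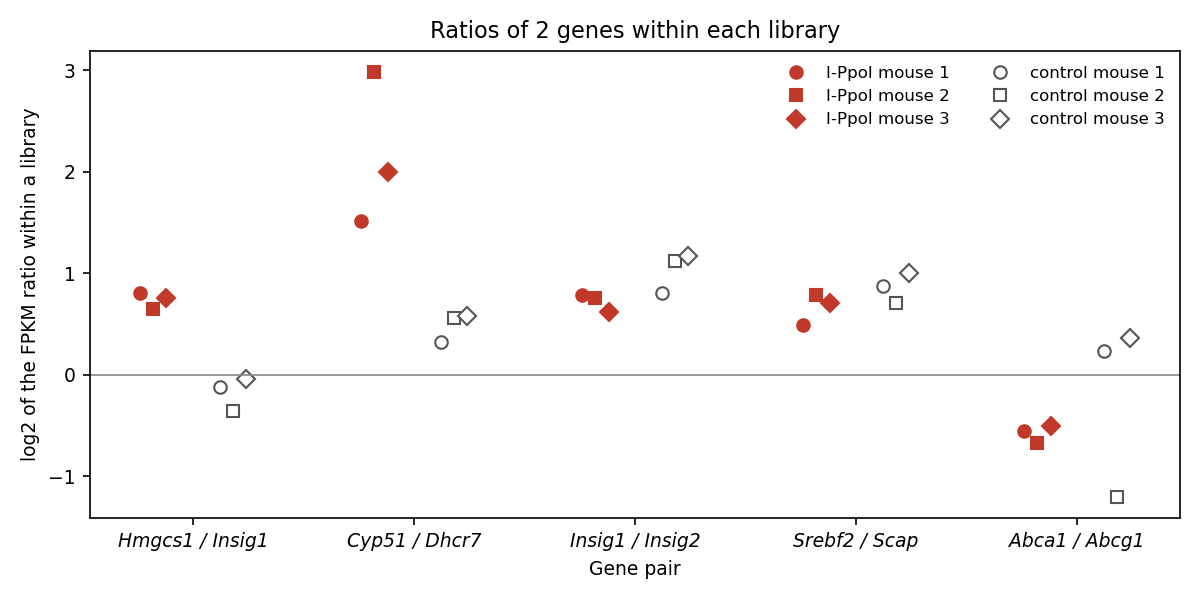
Ratios of FPKM of 2 genes within each library, on a log2 axis, for 5 of the 6 pairs computed; filled red symbols are the 3 I-PpoI mice and open grey symbols the 3 controls. The I-PpoI and control mice do not overlap for Hmgcs1 over Insig1, Cyp51 over Dhcr7 and Insig1 over Insig2, and overlap for Srebf2 over Scap and Abca1 over Abcg1.

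Opposite-strand neighbours were counted because the strandedness of the counting was not given. Their part in the values of I-PpoI mice 1 and 2 was not tested. An opposite-strand gene lay within 5 kb of an exon for 18 of the 27 genes and overlapped an exon for 7 of them. The 9 with none were Pmvk, Mvd, Fdps, Msmo1, Ebp, Sc5d, Stard4, Abca1 and Abcg1. Fitted among the 3717 tested nuclear protein-coding genes of that kind, 0 of these 8 tested genes passed. Mvd was at a log2 difference of 1.80 (SE 0.44, limma adjusted p = 0.491) and Pmvk at -0.65 (SE 0.32, limma adjusted p = 0.491).

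The neighbouring pathway was followed with 4 lists of 74 genes, of which 65 were tested and 0 passed in either direction (limma; 2 of 65 higher, beside 5.6% of all genes tested, and 4 of 65 lower, beside 2.81%, at unadjusted p under 0.05). Other synthesis and branch genes had 0 of 15 past the threshold and a median of -0.29. Lbr, a nuclear envelope sterol reductase, was at 11.95, 7.49 and 13.1 in the I-PpoI mice and 19.9, 18.3 and 21.5 in the controls (log2 difference -0.85, limma adjusted p = 0.322). The groups did not overlap, and its exons overlap those of Dnah14 on the opposite strand. Pdss1, which starts the ubiquinone tail, was at 14.1, 14.2 and 0.921 in the I-PpoI mice and 0.659 to 0.842 in the controls, and its exons overlap those of Abi1 on the opposite strand.

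SREBP processing and turnover genes had 0 of 13 past the threshold and a median of -0.35. Pgrmc1, a membrane heme-binding protein, was at 56.5, 44.3 and 94.2 in the I-PpoI mice and 91.8 to 109.7 in the controls, and Vcp, the ATPase that pulls proteins out of the endoplasmic reticulum, at 28.5, 32.8 and 56.7 against 55.0 to 61.6. Lipoprotein receptor and lysosomal genes had 0 of 14 past it and a median of -0.28. Cav1, the caveolar coat protein of endothelium, was at 34.2, 31.1 and 69.1 in the I-PpoI mice and 97.7, 93.1 and 105.8 in the controls (log2 difference -1.22, SE 0.38, limma adjusted p = 0.322). Its groups did not overlap. Of the endothelial markers, Pecam1, Tek and Esam were also below all controls in every I-PpoI mouse, while the others overlapped. The part of endothelial content in the Cav1 values was not tested. Scarb2, a lysosomal membrane protein, was at 14.8, 14.4 and 25.8 against 24.9 to 34.6 in the controls.

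Efflux, LXR and esterification genes had 0 of 23 past the threshold and a median of 0.04. Apoe, the lipoprotein that accepts effluxed cholesterol, was at 148, 624 and 205 in the I-PpoI mice and 55.0, 107.6 and 100.3 in the controls (log2 difference 1.65, SE 0.62, limma adjusted p = 0.322). All I-PpoI values were above all controls; the sum of macrophage markers, cells that express Apoe, was likewise highest in I-PpoI mice 2 and 3, and its part was not tested. Cyp7b1, an oxysterol hydroxylase, had 2, 0 and 20 fragments in the I-PpoI mice and 72 to 105 in the controls.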

How the data were processed

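Per the labels' protocols, total RNA of CD31-enriched kidney cells was read from both ends over 100 cycles. The authors deposited 1 FPKM value per gene and library (55487 genes, 6 libraries), with library size and gene length divided out. The submitters' processing notes list DESeq2 1.28.13 and the builds mm10 and GRCm38. The read aligner, the counting tool and its strandedness were not given in the sources used here. Of the gene IDs, 55227 are in GENCODE M21, which gave exon lengths and opposite-strand neighbours.

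The 14962 genes averaging 1 FPKM or more were scaled by median of ratios and fitted with limma 3.58.1 in R 4.3.3 on log2(scaled FPKM + 1), 3 I-PpoI against 3 control mice, two-sided, with Benjamini-Hochberg adjustment over all genes tested and a threshold of 0.05. This scale understates the change of low genes. The labels describe separate mice. FPKM times exon length gave whole fragments, within 0.05, for 98.5 to 98.6% of values under 1000 fragments; limma-voom used these. The fit was tested on simulated data, drawn for all 6 libraries from the mean profile of the controls. That test does not cover the unlike gene order of I-PpoI mice 1 and 2. Other tools were python 3.11.15, numpy 2.4.6, pandas 2.3.3 and matplotlib 3.10.9.

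All 27 genes of the set are named. Values in every library are given for those with unadjusted p under 0.05 or groups that do not overlap and for the 2 of highest control level per role, and for some others chosen after their values were seen. Up to 2 genes of smallest p were named per further list. The genes, lists, scaling and alternatives were chosen with earlier results of these data known. Ctsb, Lrp2 and the gene pairs were chosen after their values were seen. Promoters are RefSeq sequences of GRCm38.p6. Alternatives were a pseudocount of 0.5 or 0.1, all genes unfiltered, a minimum mean of 5 FPKM, FPKM as deposited, the replicate block, each library left out, I-PpoI mice 1 and 2 left out, limma-voom and genes clear of opposite-strand neighbours. Same-numbered mice correlated at 0.14 or less in their deviations from the group means, and differently numbered mice at -0.088 to 0.018. The check does not settle whether the numbers mark pairs.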

Additional observations from a re-analysis of the deposited data

How the results depend on the processing

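All alternatives were planned. The count of 0 genes of the set, 0 of all genes and 0 of the further lists past the threshold held with either smaller pseudocount, without the filter, at a minimum of 5 FPKM, with FPKM as deposited, limma-voom and genes clear of opposite-strand neighbours; without I-PpoI mice 1 and 2, 1 of all genes passed. With 1 library left out the counts were 0 to 9 for the set, 0 to 5632 for all genes and 0 to 17 for the further lists. Every such call came without I-PpoI mouse 3, where 9 of 25 genes of the set (7 lower, 2 higher) passed beside a background of 13.9% lower and 23.8% higher; that fit rests on the 2 libraries with few fragments. The lower genes were Insig1, Insig2, Pmvk, Ebp, Sc5d, Dhcr7 and Stard4, and the higher Mvd and Fdft1.

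With the replicate block, 0 genes of the set and 0 of all genes passed by limma. At unadjusted p under 0.05 there were 1 of 25 with it, beside 6.4% of all genes, and 3 of 25 without it, beside 8.41%. Same-numbered mice correlated at 0.14, 0.06 and 0.03 in their deviations from the group means, and differently numbered mice at -0.088 to 0.018. The same-numbered values were thus the higher ones, though small, and whether the numbers mark pairs remains unknown. In this balanced design the block leaves each log2 difference as it was and bears only on its error.

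Of the 25 genes tested, 16 changed direction under some alternative and 9 under none of those in which they were fitted; not every gene entered the fits restricted to 5 FPKM or to genes clear of opposite-strand neighbours. Without I-PpoI mice 1 and 2 the log2 difference became 0.0135 for Insig2, 0.50 for Hmgcs1, -0.65 for Mvk, -0.0212 for Sqle, 1.15 for Cyp51, 0.455 for Nsdhl, 0.10 for Hsd17b7, 0.0003 for Ebp, 0.12 for Sc5d, 0.0559 for Stard4, 0.16 for Abca1 and 0.43 for Abcg1. As deposited it became -0.47 for Acat2, -0.61 for Mvk, -0.21 for Sqle, -0.14 for Tm7sf2 and -0.12 for Npc1. By limma-voom it became 0.10 for Hmgcs1, -0.57 for Mvk, 0.84 for Cyp51, 0.31 for Nsdhl and 0.32 for Abcg1, and among genes clear of opposite-strand neighbours 0.22 for Abcg1. The cause was not tested. With 1 library left out it ranged from -0.35 to 0.17 for Scap, from -0.56 to 0.0020 for Hmgcs1, from -0.16 to 0.43 for Mvk, from -0.61 to 0.33 for Cyp51, from -0.0035 to 0.72 for Tm7sf2, from -0.38 to 0.32 for Nsdhl and from -0.27 to 0.16 for Abcg1.
The depth of I-PpoI mice 1 and 2, with 0 to 366 fragments per gene of the set, limits every value that includes them.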
